A study of Homo sapiens with 9 samples.

Results

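The response of HepG2 cells to a CRISPR guide against exon 3 of KEAP1 was compared with that to a guide against the AAVS1 locus. The comparison took the 3 sgKEAP1-1 libraries and the 3 sgCtrl libraries named as such by their titles, 6 of the 9 libraries in the series. The remaining 3 libraries, of the KEAP1 guide sgKEAP1-2, shared the fit and were tested directly against sgKEAP1-1 at the end. HepG2 is an established human liver cancer line. In every group the cells had been transduced with a lentivirus from the lentiCRISPRv2 vector, which carries Cas9 together with 1 guide, and selected with puromycin. The controls therefore also carried Cas9 and a guide that directs a cut, and each group was a selected population in which edited and unedited alleles may both have been present. No siRNA was used. RNA was taken 48 h after the cells had been seeded and was read by QuantSeq, a method that gives reads near the 3′ end of polyadenylated transcripts. Whether the 3 libraries of a group came from separate transductions or cultures is not given in the sources used here, so the p-values measure the spread between these libraries.

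KEAP1 is the substrate adaptor of a CUL3 ubiquitin ligase. In unstressed cells it binds the transcription factor NRF2, encoded by NFE2L2, and directs it to the proteasome. When KEAP1 is lost or its cysteines are modified, NRF2 accumulates, pairs with small MAF proteins and binds antioxidant response elements (AREs) in genes for glutathione synthesis, quinone and carbonyl reduction, NADPH supply and conjugate export. BACH1 competes with it at many of these elements. In the liver the pathway is known for its control of drug metabolism and resistance to oxidants, and KEAP1 or NFE2L2 is mutated in a share of liver cancers.

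Both guides were placed on GRCh37 by exact match to chromosome 19, and each had 1 match there. They are shown because they define the comparison, with the guide in capitals, followed by the PAM, and 50 flanking bases on each side in lower case. The KEAP1 guide lay at chr19:10602372-10602391 on the minus strand, which is the coding strand of KEAP1, with the PAM TGG. The site is in exon 3 of 6 (chr19:10602253-10602938). The cut expected between bases 10602374 and 10602375 has 1203 of the 1872 coding bases before it (64.3%) and falls after codon 401, in the part that encodes the Kelch domain, which binds NRF2. The AAVS1 guide lay at chr19:55627855-55627873 on the plus strand, with the PAM AGG, in intron 1 of PPP1R12C.
sgKEAP1-1: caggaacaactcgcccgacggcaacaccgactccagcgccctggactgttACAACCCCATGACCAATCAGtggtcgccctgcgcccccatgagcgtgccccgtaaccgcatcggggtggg
sgCtrl: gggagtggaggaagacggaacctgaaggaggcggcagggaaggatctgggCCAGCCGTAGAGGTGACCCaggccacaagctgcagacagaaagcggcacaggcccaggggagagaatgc

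The deposited counts of features with a gene number came to between 3011644 and 3758185 reads in the sgCtrl libraries and to between 3719654 and 4725840 in the sgKEAP1-1 libraries. Of 11746 such features, 11064 had enough reads to be tested. Levels are given below as CPM, counts per 1000000 counted reads after TMM scaling, in the order of replicates 1, 2 and 3. In a principal component analysis of the 6 libraries the first component (47.3% of the variance) separated the guides, and the second (22.3%) set replicate 2 of both groups (28.6 and 20.9) apart from the other 4 libraries (-18.1 to -7.94). Same-numbered libraries of both groups deviated together from their group means, most clearly those of replicate 2. A fit with the replicate number as a block is therefore given for the comparison of these groups. It stands beside the list counts and the named genes whose call it changed. A feature is called higher or lower with sgKEAP1-1 where the adjusted p of edgeR's quasi-likelihood test was under 0.05.

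KEAP1 mRNA was at 63.3, 89.2 and 85.3 CPM in the sgCtrl libraries and at 64.1, 62.5 and 53.4 CPM in the sgKEAP1-1 libraries. The groups overlapped, and the log2 fold change of -0.40 ± 0.15 (SE) did not pass the test (adjusted p = 0.211). The reads come from the 3′ end, in the 1199 transcript bases downstream of the cut, so this level does not check the editing. NFE2L2 mRNA was at 271, 234 and 264 CPM with sgCtrl and at 178, 214 and 189.6 CPM with sgKEAP1-1, without overlap. Its log2 fold change was -0.40 ± 0.14 (adjusted p = 0.146, and 0.0437 with the replicate block, which called it lower). BACH1 was at 11.1, 20.8 and 12.8 CPM with sgCtrl and at 18.3, 24.4 and 17.6 CPM with sgKEAP1-1 (log2 fold change 0.45 ± 0.27, adjusted p = 0.497). Among all 14 tested regulators and partners of NRF2, 1 was called higher and 1 lower, against 2 and 2 with the block. The gene called higher, SQSTM1, encodes p62, which binds KEAP1 and is a cargo receptor of autophagy, and is itself an NRF2 target. It was at 169, 208 and 182 CPM with sgCtrl and at 401, 540.3 and 342 CPM with sgKEAP1-1 (log2 fold change 1.2 ± 0.17, adjusted p = 0.000638). BTRC, an F-box protein of the KEAP1-independent route of NRF2 turnover, was called lower (-0.70 ± 0.19, adjusted p = 0.0479). The loss of calls was followed by leaving out each of the 6 libraries in turn, and the call was lost for BTRC in 5 of 6 fits (adjusted p up to 0.231, without sgCtrl replicate 3).

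Across all features, 465 were called (4.2% of those tested), 310 higher (2.8%) and 155 lower (1.4%). The median log2 fold change of the genes called higher was 1.4, and 98 of them rose by at least 2 on the log2 scale. That of the genes called lower was -0.85, and 6 of them fell by at least 2. Genes called higher took 2.50% to 2.62% of all counted reads in the sgCtrl libraries and 5.0% to 5.6% in the sgKEAP1-1 libraries. Those called lower went from 6.19% to 6.98% down to 3.55% to 3.86%. The calls higher were many and often large at low levels, while the calls lower lay more among abundant transcripts. Under 5 CPM, 4.77% of features were called higher and 0.426% lower, and over 100 CPM the shares were 3.27% and 2.94%. The low-level contrast depends in part on the filter. Of the calls higher 40 had at most 3 reads in every sgCtrl library, so only libraries with a KEAP1 guide brought them into the test. With at least 10 counts in every library 189 were called higher and 130 lower. For 464 of the 465 the 3 values of one group did not overlap the 3 of the other, which held for 21.7% of all features tested. With the replicate block 565 were called higher (5.11%) and 412 lower (3.72%), and all 465 were among them. These shares of all features, without and with the block, are the background for every list count below. The count fell to 278 without sgCtrl replicate 1, to 287 without sgCtrl replicate 3 and to 285 without sgKEAP1-1 replicate 1. Without replicate 2 of all 3 groups, an alternative chosen after these libraries had been seen to stand apart, it was 404.

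**Figure D1:**
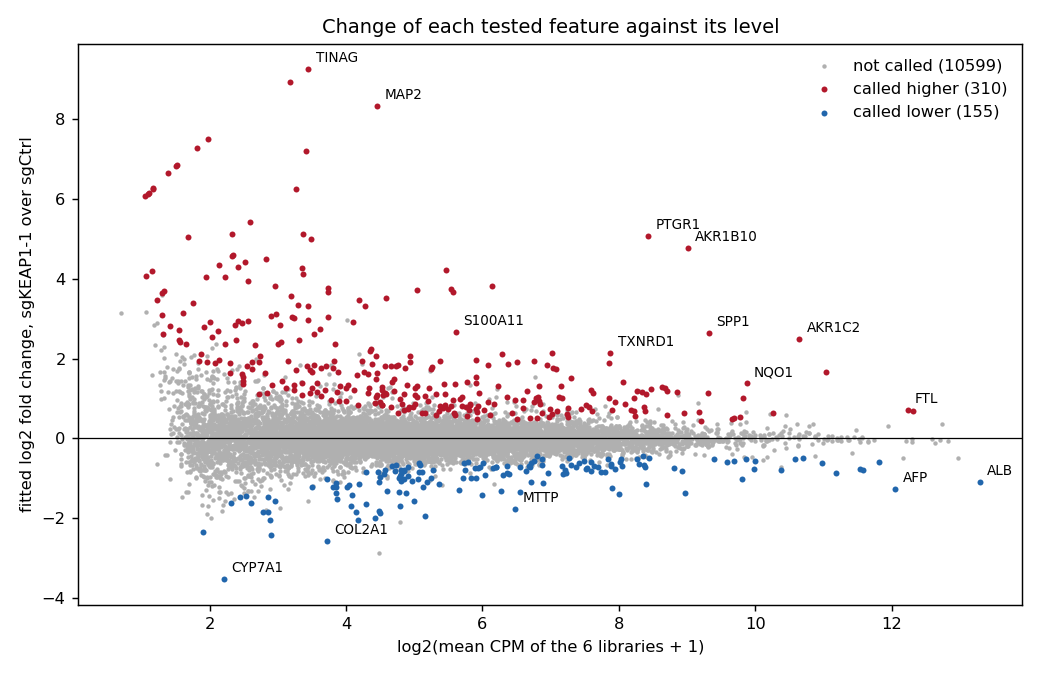
Each point is 1 of the 11064 features tested, with log2 of its mean CPM over the 6 libraries plus 1 on the horizontal axis and its fitted log2 fold change of sgKEAP1-1 over sgCtrl on the vertical axis. The 310 features called higher (red) reach far above 0 at low levels, and the 155 called lower (blue) extend to ALB and AFP at the high end.

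Enzymes that reduce quinones, carbonyls and epoxides had the highest median fold change of the 34 lists. Of the 19 tested, 11 were called higher and the other 8 did not pass, with a median log2 fold change of 1.26 against 0.00 over all features. PTGR1, prostaglandin reductase 1, which reduces reactive unsaturated aldehydes, rose from 17.8, 19.7 and 21.8 CPM to 694, 769 and 544 CPM. That is 33.9-fold (log2 fold change 5.08 ± 0.19, adjusted p = 2.37e-09), and the groups were far apart. AKR1B10, an aldo-keto reductase of aldehydes and retinal, rose from 27.3, 51.04 and 32.4 CPM to 976, 1218 and 793 CPM (4.76 ± 0.38, adjusted p = 9.95e-05). AKR1C2, which reduces steroids and xenobiotic ketones, went from 521, 555 and 384 to 3105, 2381 and 2681 CPM (2.48 ± 0.15, adjusted p = 3.58e-07). Its neighbours AKR1C1 (1.66 ± 0.20) and AKR1C3 (1.26 ± 0.16) rose too, but the sequences of these paralogs are so alike that reads may have been shared out unevenly among them. Together AKR1B10 and the AKR1C genes took 0.137% to 0.202% of all reads with sgCtrl and 0.670% to 0.803% with sgKEAP1-1.

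NQO1, the quinone reductase most used as a readout of NRF2, was at 536, 521 and 505 CPM with sgCtrl and at 1442, 1360 and 1265 CPM with sgKEAP1-1. Within each group these values lay close together, and NQO1 rose 2.603-fold (log2 fold change 1.38 ± 0.12, adjusted p = 8.24e-06). EPHX1, microsomal epoxide hydrolase, rose 3.59-fold, from 34.7, 28.6 and 23.4 to 107, 104 and 101 CPM (adjusted p = 7.09e-06). The aldehyde dehydrogenases ALDH3A1 (3.35 ± 0.44, adjusted p = 0.000366) and ALDH1A1 (1.4 ± 0.15, adjusted p = 6.13e-05) rose, as did the carbonyl reductase CBR1 (0.80 ± 0.16, adjusted p = 0.007697). PTGR2 passed narrowly (adjusted p = 0.0469). Members without a call included NQO2 (-0.21), AKR1A1 (-0.05) and EPHX2 (-0.44). When each library was left out in turn, calls were lost for PTGR2 in 5 of 6 fits (adjusted p up to 0.187, without sgKEAP1-1 replicate 1) and CBR1 in 1 of 6 fits (adjusted p up to 0.0566, without sgCtrl replicate 3).

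Of 27 tested genes for glutathione synthesis, recycling and conjugation, 7 were called higher and 20 did not pass (median 0.27). With the block 8 were called higher and 1 lower. Both subunits of glutamate-cysteine ligase, the first and limiting step of glutathione synthesis, rose. The modifier GCLM went from 46.4, 72.8 and 58.6 CPM to 222, 206 and 175 CPM (1.77 ± 0.18, adjusted p = 4.87e-05), and the catalytic GCLC from 53, 76.9 and 51.9 to 127, 164 and 122 CPM (1.19 ± 0.20, adjusted p = 0.002696). Cystine reaches the cell through SLC7A11, the light chain of the cystine and glutamate exchanger. It rose from 31.5, 46.3 and 35.4 to 125, 206 and 93.6 CPM (1.92 ± 0.33, adjusted p = 0.00833), with replicate 2 the highest library of both groups. Glutathione reductase GSR (0.86 ± 0.15, adjusted p = 0.00272), the peroxidase GPX2 (1.15 ± 0.16, adjusted p = 0.000541) and the transferases GSTA1 (1.94 ± 0.18, adjusted p = 1.63e-05) and MGST1 (1.11 ± 0.23, adjusted p = 0.0175) rose as well. GSTA1 was at 42.1, 46.96 and 43.2 CPM with sgCtrl and at 175, 129 and 204 with sgKEAP1-1, and it too has close paralogs. The glutathione synthetase GSS (0.27), GPX1 (0.15) and GPX4 (-0.04) did not pass. The call was lost with 1 library left out for MGST1 in 4 of 6 fits (adjusted p up to 0.0946, without sgCtrl replicate 1).

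Within the thioredoxin, peroxiredoxin and superoxide list 2 of 19 were called higher (median 0.14). TXNRD1, thioredoxin reductase, rose from 73.4, 121 and 67.5 to 362, 457 and 324 CPM (2.13 ± 0.29, adjusted p = 0.00193). OSGIN1, an oxidative stress-induced growth inhibitor, rose from 26.8, 28.6 and 17.6 to 97.2, 104 and 81.8 CPM (1.96 ± 0.17, adjusted p = 1.26e-05). The peroxiredoxins PRDX1 (0.31) and PRDX6 (-0.06) and the dismutases SOD1 (0.14) and SOD2 (-0.06) stayed below the threshold. NADPH for these reductases comes largely from the pentose phosphate pathway, where 3 of 15 genes were called higher (median 0.13). These were the transaldolase TALDO1, from 230.5, 186 and 215 to 537, 476 and 480.2 CPM (1.24 ± 0.12, adjusted p = 3.45e-05), the 6-phosphogluconate dehydrogenase PGD (0.86 ± 0.15, adjusted p = 0.00266) and the transketolase TKT (0.71 ± 0.13, adjusted p = 0.00478). With the block 4 were called higher.

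**Figure D2:**
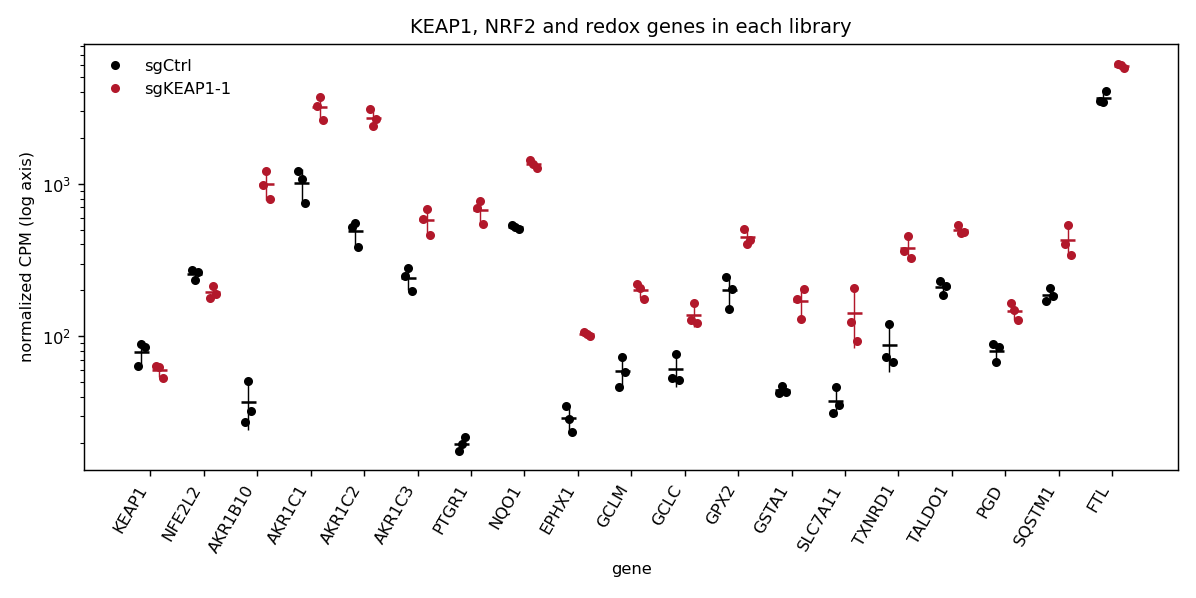
Normalized CPM of 19 genes (log axis) in the 3 sgCtrl libraries (black) and the 3 sgKEAP1-1 libraries (red), with the mean as a horizontal bar and the SD as a vertical one. KEAP1 overlaps between the guides and NFE2L2 lies lower with sgKEAP1-1, while each of the other 17 genes is higher in all 3 sgKEAP1-1 libraries than in any control. These 17 were picked from called features, where 464 of 465 had no overlap, against 21.7% of all features tested.

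In iron and heme handling 1 of 21 genes was called higher and 1 lower (4.76% each, median 0.05), where 2.8% and 1.4% of all features were. With the block 5 were higher and 1 lower, where 5.11% and 3.72% of all features were. FTL, the ferritin light chain that stores iron, rose from 3494, 3440 and 4085 CPM to 6117, 6070 and 5732 CPM (0.70 ± 0.12, adjusted p = 0.00248). FTH1, the heavy chain, had 0.35 ± 0.12 (adjusted p = 0.117, and 0.0351 with the block). HMOX1, heme oxygenase 1 and a classical ARE gene under strong BACH1 repression, was at 32.1, 42.2 and 39.04 CPM and 41.6, 30.7 and 44.97 CPM, with overlap (0.05 ± 0.22, adjusted p = 0.957). TFR2, a transferrin receptor of hepatocytes, fell (-1.02 ± 0.21, adjusted p = 0.0108). The iron exporter SLC40A1 was called higher with the block only (1.33 ± 0.42, adjusted p = 0.142, blocked 0.00102). Of 8 ABC transporters that export drugs and conjugates 4 were called higher (median 0.86), all of them multidrug resistance proteins of the C family. ABCC3 went from 36.04, 37.8 and 40.1 to 92.8, 82.3 and 76 CPM (1.14 ± 0.13, adjusted p = 0.000116) and ABCC2 from 45.6, 63.6 and 50.2 to 99.1, 137 and 90.5 CPM (1.04 ± 0.20, adjusted p = 0.00618). ABCC5 (0.87 ± 0.20, adjusted p = 0.01799) and ABCC4 (0.85 ± 0.22, adjusted p = 0.0445) passed less firmly. With the block ABCG2 was added higher (adjusted p = 0.00646) and ABCB4 lower (adjusted p = 0.0209). Calls were lost with 1 library left out for TFR2 in 3 of 6 fits (adjusted p up to 0.0572, without sgKEAP1-1 replicate 3), ABCC2 in 1 of 6 fits (adjusted p up to 0.0504, without sgCtrl replicate 1), ABCC5 in 4 of 6 fits (adjusted p up to 0.103, without sgCtrl replicate 1) and ABCC4 in 4 of 6 fits (adjusted p up to 0.202, without sgCtrl replicate 1).

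Of 29 tested cytochromes P450, UGTs, sulfotransferases and related genes 7 were called higher and 22 did not pass, while the median was -0.08. With the block 8 were called higher and 1 lower. SULT1A1, a phenol sulfotransferase, rose from 264, 307 and 278 to 675, 616 and 624 CPM (1.17 ± 0.12, adjusted p = 3.29e-05), and its near-identical paralog SULT1A2 had 1.01 ± 0.15 (adjusted p = 0.00108). CYP2S1 rose from 1.06, 1.36 and 1.67 to 10.96, 15.5 and 8.41 CPM (3.07 ± 0.35, adjusted p = 0.000113) and CYP4F11, a fatty acid and vitamin K hydroxylase, from 5.3, 5.44 and 5.298 to 22.6, 20.04 and 13.4 CPM (1.8 ± 0.27, adjusted p = 0.000893). UGT1A1, which conjugates bilirubin, was at 0, 0.3403 and 0.558 CPM with sgCtrl and at 8.53, 5.88 and 8.94 with sgKEAP1-1. Over 3 control reads that is 26.4 times (95% counting interval 8.76 to 130) the control (adjusted p = 0.000134). The fitted log2 fold change of UGT1A1, 4.58 over all libraries, was 3.98 without sgCtrl replicate 1 and 5.42 without sgCtrl replicate 3. The UGT1A genes share their last exons, where 3′ reads fall, so these reads may belong to any of them. UGT2B7 (0.78 ± 0.16, adjusted p = 0.00924) and UGDH, which makes the UDP-glucuronate they use (0.43 ± 0.11, adjusted p = 0.0469), also rose. POR, the electron donor of microsomal P450s, had -0.39 ± 0.12 (adjusted p = 0.0945), and with the block it was called lower (adjusted p = 0.0251). Calls were lost with 1 library left out for UGT2B7 in 1 of 6 fits (adjusted p up to 0.0547, without sgCtrl replicate 3) and UGDH in 5 of 6 fits (adjusted p up to 0.222, without sgCtrl replicate 3).

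Promoters of the RefSeq table (GRCh38.p14), 250 bases before to 50 after each start, were searched for the ARE core TGACNNNGC on both strands, and 8941 of the 11063 tested genes had an entry. The core was present in 13.6% of all 27305 promoters, in 15.4% of those of tested genes, in 17.6% of those of genes called higher (40 of 227) and in 17.2% of those called lower (20 of 116). Among the genes called higher in the redox and NRF2 lists with a promoter it was in 6 of 24, and among tested lysosomal genes in 17 of 49 (34.7%). A match is a description and not a site of binding, no match says only that these letters are absent from this short window, and many known AREs lie further upstream. The stretches around the core in these 6 promoters are shown, from genes described above, with the core in capitals, read 5′ to 3′ in the direction of transcription. The stretches lie at chr1:93909431-93909499 (GCLM, minus strand), chr14:64942824-64942902 (GPX2, minus strand), chr12:104215645-104215723 (TXNRD1, plus strand), chr1:10398828-10398906 (PGD, plus strand), chr21:36069830-36069908 (CBR1, plus strand) and chr13:95301557-95301635 (ABCC4, minus strand). In TXNRD1 the capitals are the core on the strand shown, and in the others its reverse complement.
GCLM: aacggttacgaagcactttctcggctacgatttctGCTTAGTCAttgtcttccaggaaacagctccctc
GPX2: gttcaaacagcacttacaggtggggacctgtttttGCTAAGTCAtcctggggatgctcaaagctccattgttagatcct
TXNRD1: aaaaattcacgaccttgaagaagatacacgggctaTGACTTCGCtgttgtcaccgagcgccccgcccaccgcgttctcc
PGD: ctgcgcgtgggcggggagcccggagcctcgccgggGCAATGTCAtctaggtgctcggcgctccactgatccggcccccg
CBR1: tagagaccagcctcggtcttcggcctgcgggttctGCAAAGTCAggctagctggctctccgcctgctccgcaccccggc
ABCC4: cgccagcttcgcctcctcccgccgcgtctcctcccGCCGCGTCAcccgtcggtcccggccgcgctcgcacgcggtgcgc

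The series was made around lysosomal biogenesis, which the MiT/TFE factors TFEB and TFE3 drive by binding CLEAR elements in lysosomal genes. TFEB was at 12.2, 11.9 and 14.2 CPM with sgCtrl and at 10.7, 10.02 and 8.41 with sgKEAP1-1 (-0.39 ± 0.22, adjusted p = 0.465). TFE3 was at 34.2, 28.9 and 32.4 and 37.5, 34.4 and 31.8 CPM (0.12 ± 0.15, adjusted p = 0.818), and MITF was not among the features tested. None of the 23 tested genes for these factors and for nutrient sensing at the lysosome was called by edgeR, with or without the block, nor by limma-voom or DESeq2. At an unadjusted p under 0.05 there were 4 higher and 1 lower, a cut that 8.37% of all features tested passed higher and 6.63% lower. RRAGA, a Rag GTPase, had 0.32 ± 0.12 (adjusted p = 0.206) and LAMTOR1, a Ragulator subunit, 0.11 ± 0.14 (adjusted p = 0.794).

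Of 37 lysosomal hydrolases and activators 3 were called higher and none lower, while 30 had a positive fold change and the median was 0.33. With the block 8 were called higher. GLA, alpha-galactosidase A, rose from 13.5, 14.97 and 10.9 CPM to 37.5, 34.9 and 37.9 CPM (1.49 ± 0.18, adjusted p = 0.000134). AGA, aspartylglucosaminidase, rose from 26.2, 21.8 and 19.5 to 49.2, 40.7 and 51.01 CPM (1.06 ± 0.17, adjusted p = 0.00202), and the hexosaminidase subunit HEXA from 43.99, 40.5 and 45.7 to 58.95, 67.5 and 66.3 CPM (0.56 ± 0.13, adjusted p = 0.0239). The 5 added by the block were the saposin precursor PSAP (0.38 ± 0.12, blocked adjusted p = 0.0321), the cathepsins CTSA (0.44 ± 0.12, 0.0105) and CTSB (0.47 ± 0.23, 0.00595), the glucosidase GAA and the sulfatase GALNS (0.81 ± 0.22, 0.0228). Beta-galactosidase GLB1 (0.09 ± 0.15, adjusted p = 0.866) and cathepsin CTSD (0.21 ± 0.13, adjusted p = 0.482) did not pass either fit. Among 32 genes for the lysosomal membrane, trafficking and the proton pump 1 was called higher (3.12%, against 2.8% of all features tested), and 3 with the block (median 0.21). It was the tetraspanin CD63, at 671, 598 and 741 CPM with sgCtrl and 1013, 988 and 826 with sgKEAP1-1 (0.49 ± 0.12, adjusted p = 0.03498). LAMP1 had 0.34 ± 0.12 (adjusted p = 0.166, blocked 0.0348). Calls were lost with 1 library left out for HEXA in 5 of 6 fits (adjusted p up to 0.095, without sgCtrl replicate 1) and CD63 in 5 of 6 fits (adjusted p up to 0.173, without sgKEAP1-1 replicate 1). Without replicate 2 of all groups 2 hydrolases and none of the membrane list were called.

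In the autophagy list 2 of 40 genes were called higher (5.0%, against 2.8% of all features tested, median 0.06). Both encode cargo receptors. One was SQSTM1, described above, and the other TAX1BP1, which rose from 241, 284 and 242 to 404, 479 and 341 CPM (0.67 ± 0.16, adjusted p = 0.0219). GABARAPL1, an ATG8 protein of the autophagosome membrane, had 0.78 ± 0.22 (adjusted p = 0.0657) and was called higher with the block (0.0114). The receptors NBR1 (0.12) and OPTN (-0.19) and the ATG8 protein MAP1LC3B (0.25) did not pass. The fits without 1 library lost the call of TAX1BP1 in 4 of 6 fits (adjusted p up to 0.123, without sgCtrl replicate 1). The E-box TCACGTG, the core of the CLEAR element, was in 11 of the 49 promoters of tested lysosomal genes, in 6.03% of all tested promoters and in 2.20% of those of genes called higher.

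Many of the largest increases were in genes with hardly any reads in the controls. Of the 310 genes called higher 40 had at most 3 reads in every sgCtrl library, and folds of these rest on few control reads. MAP2, a microtubule-associated protein typical of neurons, had 1 read over the 3 sgCtrl libraries and 45.8, 40.96 and 38.4 CPM with sgKEAP1-1, a ratio of 430.0 times (95% counting interval 76.9 to 17000) (adjusted p = 2.20e-07). The basement membrane glycoprotein TINAG had no control read and was at 17.3, 29.9 and 12.4 CPM with sgKEAP1-1, at least 22.4-fold higher where 0 is set to 3 reads per library (adjusted p = 0.000174). On the same bound TUSC3, of the oligosaccharyltransferase, was at least 18.2-fold higher (14.1, 21.6 and 12.6 CPM), the thrombin receptor-like F2RL2 at least 6.61-fold (6.58, 8.06 and 2.89 CPM) and the calcium-binding sperm protein CABYR at least 5.68-fold (3.897, 6.97 and 4.21 CPM). DEFB1, an epithelial defensin, reached 19.7, 14.8 and 22.9 CPM over 1 control read, a ratio of 194 times (95% counting interval 34.6 to 7710). NOTCH3, a Notch receptor, was at 20.2, 21.1 and 9.73 CPM, 89.4 times (95% counting interval 24.5 to 743) the control. The ratio was 51.5 times (95% counting interval 14 to 430.0) for the membrane protein TMEM92, 41.2 times (95% counting interval 11.1 to 345) for the laminin chain LAMC3 and 26.9 times (95% counting interval 8.94 to 133) for LYVE1, a hyaluronan receptor known from lymphatic endothelium. KILH was at 0.265, 1.36 and 0 CPM with sgCtrl and 15.6, 27.4 and 11.3 CPM with sgKEAP1-1 (5.13 ± 0.79, adjusted p = 0.00304). Several of these sizes rested on 1 control library. The fitted log2 fold change, which depends at such counts on the prior count of the fit, moved without sgCtrl replicate 2 from 8.33 to 10.35 for MAP2, from 5.44 to 8.28 for TMEM92, from 4.59 to 5.55 for LYVE1 and from 5.13 to 6.77 for KILH. Without sgCtrl replicate 1 it moved from 7.2 to 9.19 for DEFB1 and to 3.99 for LYVE1, and without sgCtrl replicate 3 to 4.54 for KILH. The groups of these genes had to be without overlap for them to be named.

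Cytoskeletal genes formed the list with the most calls. Of 50 actin, intermediate filament and microtubule genes 13 were called higher and 3 lower (median 0.25), against 16 and 4 with the block. MAP1B, a microtubule-associated protein, rose from 52.5, 51.7 and 56.9 CPM to 199, 227 and 149 CPM (1.83 ± 0.17, adjusted p = 2.02e-05). The tubulin TUBA4A went from 10.9, 13.6 and 9.48 to 49.5, 37.7 and 31.8 CPM (1.82 ± 0.21, adjusted p = 0.000115), and TUBB2B (1.39 ± 0.20) and TUBA1A (1.93 ± 0.29) rose as well. TMSB10, a thymosin that binds monomeric actin, rose 2.003-fold, from 591, 592 and 629.9 to 1203, 1272 and 1156 CPM (adjusted p = 5.42e-05). KRT19, a keratin of bile duct cells, rose from 193, 243 and 257 to 649, 426 and 610.3 CPM (1.28 ± 0.20, adjusted p = 0.00193). The hepatocyte keratins KRT8 (0.44 ± 0.12, adjusted p = 0.0647, blocked 0.0084) and KRT18 (0.43 ± 0.13, adjusted p = 0.0933, blocked 0.0184) were called higher with the block only. The 3 called lower were the muscle actin ACTA1, from 20.7, 35.4 and 22.3 to 9.26, 5.66 and 6.57 CPM (-1.86 ± 0.33, adjusted p = 0.003199), the actin-severing gelsolin GSN (-0.83 ± 0.15, adjusted p = 0.00484) and transgelin TAGLN (-1.14 ± 0.29, adjusted p = 0.0414). Calls that were lost without 1 library were those of TAGLN in 6 of 6 fits (adjusted p up to 0.127, without sgKEAP1-1 replicate 2).

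In the list of epithelial adhesion and S100 genes 7 of 36 were called higher and 1 lower (median 0.31), against 11 and 2 with the block. The calcium-binding S100A11 rose from 10.9, 17.01 and 11.4 CPM to 83.1, 92.4 and 72.6 CPM (2.67 ± 0.19, adjusted p = 1.53e-06), and S100A6 from 126, 123 and 119 to 297, 268 and 239 CPM (1.13 ± 0.18, adjusted p = 0.00189). SFN, the 14-3-3 sigma protein of epithelia, rose from 46.4, 44.6 and 51.6 to 259, 181 and 187 CPM (2.14 ± 0.18, adjusted p = 7.09e-06). The tight junction claudin CLDN4 rose (1.31 ± 0.15, adjusted p = 0.000115) and CLDN14 fell, from 10.1, 14.3 and 6.69 to 2.68, 3.05 and 1.58 CPM (-2.04 ± 0.40, adjusted p = 0.00765). E-cadherin CDH1 rose (1.75 ± 0.29, adjusted p = 0.00231). S100P, at 142, 280.4 and 154 CPM and 362, 619.6 and 324 CPM, was called with the block only, and replicate 2 was the highest in both groups (1.18 ± 0.33, adjusted p = 0.0999, blocked 2.16e-07). Of 41 genes for matrix, integrins and matrix proteases 8 were called higher and 5 lower (median 0.14), against 10 and 5 with the block. SPP1, the secreted osteopontin, rose from 193, 195 and 138 to 996, 1437 and 862 CPM (2.65 ± 0.29, adjusted p = 0.000482), and FN1, fibronectin, had the largest gain in CPM of any gene called higher, from 3893 ± 772 to 6273 ± 1186 CPM (mean ± SD, n = 3, 0.69 ± 0.17, adjusted p = 0.0344). The protease inhibitors TIMP1 (1.54 ± 0.28, adjusted p = 0.00777) and TIMP2 (0.94 ± 0.14, adjusted p = 0.000786) rose while TIMP3 fell (-0.63 ± 0.14, adjusted p = 0.0163). The collagens COL2A1, from 23.9, 17.4 and 21.5 to 4.14, 2.18 and 4.21 CPM (-2.58 ± 0.34, adjusted p = 0.000353), and COL27A1 (-0.69 ± 0.15, adjusted p = 0.0151) fell. Without 1 of the 6 libraries the call was lost for FN1 in 4 of 6 fits (adjusted p up to 0.178, without sgCtrl replicate 3), TIMP1 in 1 of 6 fits (adjusted p up to 0.0503, without sgCtrl replicate 3), TIMP3 in 2 of 6 fits (adjusted p up to 0.114, without sgCtrl replicate 1) and COL27A1 in 3 of 6 fits (adjusted p up to 0.108, without sgCtrl replicate 1).

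Most secreted liver products that were called fell, and a few rose. Of 46 secreted coagulation, complement and plasma proteins 8 were called lower and 2 higher (median -0.20), against 12 and 5 with the block. Albumin, ALB, was at 13610, 16330 and 11030 CPM in the sgCtrl libraries and at 5373, 7761 and 6030 CPM in the sgKEAP1-1 libraries. It fell 2.14-fold (log2 fold change -1.1 ± 0.18, adjusted p = 0.002696) and took 1.11% to 1.59% of all reads in the controls and 0.544% to 0.754% with sgKEAP1-1. Transferrin TF, from 3959, 4123 and 3217 to 1872, 2433 and 2294 CPM (-0.78 ± 0.14, adjusted p = 0.003095), the fibrinogen chain FGB, from 1524, 1039 and 1265 to 684, 795 and 751 CPM (-0.78 ± 0.15, adjusted p = 0.00575), and the bradykinin precursor KNG1, from 26.2, 31.6 and 27.1 to 8.53, 12.4 and 5.79 CPM (-1.65 ± 0.25, adjusted p = 0.00109), fell. The cell-adhesive plasma protein vitronectin, VTN, fell from 53.5, 37.4 and 51.03 to 17.1, 15.2 and 29.2 CPM, with sgKEAP1-1 replicate 3 nearest the controls (-1.22 ± 0.25, adjusted p = 0.0114). Against this direction transthyretin TTR, a carrier of thyroxine and retinol, rose from 392, 436 and 333 to 627, 683 and 489 CPM (0.63 ± 0.15, adjusted p = 0.0298), and the complement protease C1S from 13.2, 10.2 and 10.3 to 26.3, 29.2 and 26.03 CPM (1.26 ± 0.21, adjusted p = 0.00212). SERPINA1, alpha-1-antitrypsin (-0.15), and the thrombin precursor F2 (0.04) did not pass. Leave-one-out fits lost the calls of VTN in 3 of 6 fits (adjusted p up to 0.0753, without sgCtrl replicate 1) and TTR in 4 of 6 fits (adjusted p up to 0.165, without sgCtrl replicate 3).

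Of 16 oncofetal and growth factor genes of the liver 1 was called higher and 2 lower (median 0.05), against 2 and 2 with the block. AFP, alpha-fetoprotein, which HepG2 cells secrete, fell from 5386, 6902 and 5789 CPM to 2019, 3143 and 2338 CPM, or 2.41-fold (-1.27 ± 0.18, adjusted p = 0.000778). The imprinted, retrotransposon-derived PEG10 fell from 3281, 2802 and 2999 to 1539, 1705 and 1700 CPM (-0.88 ± 0.12, adjusted p = 0.0003097). SPINK1, a secreted trypsin inhibitor, rose from 11.7, 5.104 and 5.02 to 28.99, 33.99 and 21.6 CPM (1.93 ± 0.32, adjusted p = 0.00218). GPC3 (0.04 ± 0.13) and DLK1 (0.24 ± 0.12), which also mark hepatoblasts, did not pass. Among 23 hepatocyte transcription factors 2 were called lower. ONECUT1, or HNF6, fell from 22.5, 23.8 and 23.4 to 11.2, 7.41 and 7.36 CPM (-1.42 ± 0.23, adjusted p = 0.00158) and RXRA, the partner of several nuclear receptors, from 138, 109 and 136 to 90.8, 84.1 and 83.1 CPM (-0.57 ± 0.13, adjusted p = 0.0197). HNF4A had -0.43 ± 0.13 (adjusted p = 0.0945) and was called lower with the block (0.0121). CEBPA (-0.19) and FOXA2 (-0.09) did not pass either fit. The calls lost without 1 library were those of RXRA in 5 of 6 fits (adjusted p up to 0.114, without sgCtrl replicate 1).

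**Figure D3:**
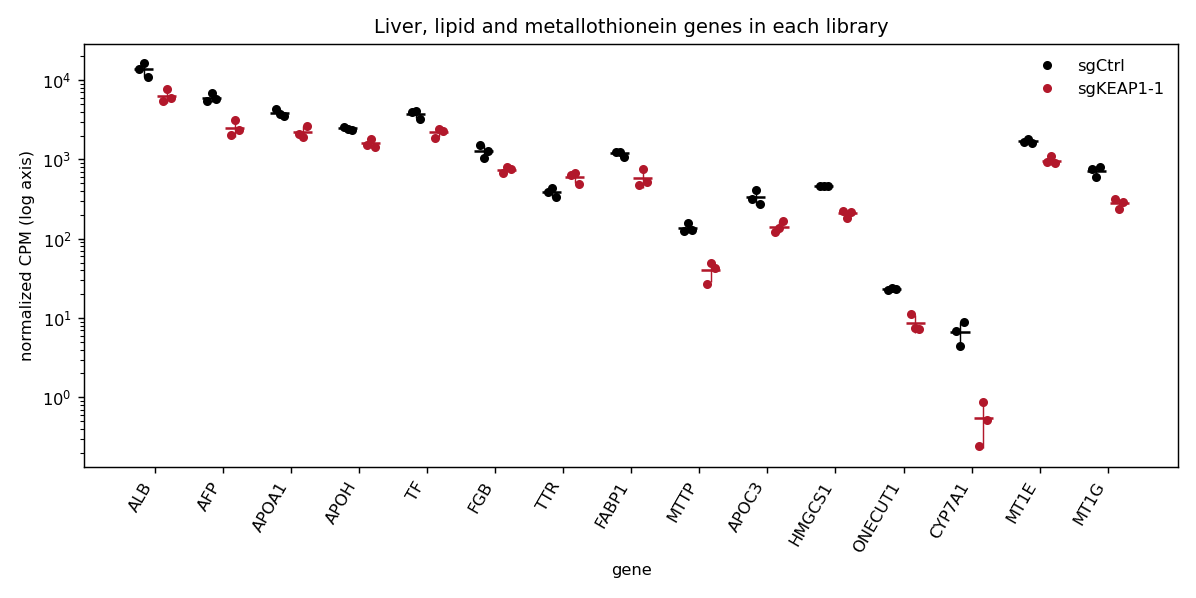
Normalized CPM of 15 liver, lipid and metallothionein genes (log axis) in the 3 sgCtrl libraries (black) and the 3 sgKEAP1-1 libraries (red), with the mean as a horizontal bar and the SD as a vertical one. TTR is the only one of the 15 whose sgKEAP1-1 libraries lie above the controls, and the other 14 lie below in every library. All 15 were picked from called features, where 464 of 465 had no overlap, against 21.7% of all features tested.

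Of 21 genes for apolipoproteins and lipoprotein assembly 5 were called lower (median -0.07), and with the block 8 were lower and 2 higher. MTTP, which loads lipid onto nascent apolipoprotein B, fell most, from 125, 158 and 128 to 27.04, 50.1 and 42.9 CPM (-1.77 ± 0.22, adjusted p = 0.000264). The lipase inhibitor APOC3, from 318, 413 and 272 to 122, 135 and 169 CPM (-1.24 ± 0.25, adjusted p = 0.0151), APOA1 of HDL (-0.80 ± 0.17, adjusted p = 0.0155) and APOH (-0.63 ± 0.12, adjusted p = 0.00627) fell too. APOB itself had -0.06 ± 0.12 (adjusted p = 0.909) and APOE 0.20 ± 0.11 (adjusted p = 0.4597). In bile acid synthesis and transport 2 of 16 were called lower (median -0.36), against 4 lower and 1 higher with the block. CYP7A1, the rate-limiting enzyme of bile acid synthesis, had the largest fitted decrease of all features tested, at 6.89, 4.42 and 8.92 CPM in the controls and 0.244, 0.871 and 0.526 CPM with sgKEAP1-1 (-3.53 ± 0.57, adjusted p = 0.00176). KLB, the co-receptor of FGF19 in hepatocytes, fell from 248, 158 and 172 to 106, 105 and 105 CPM (-0.87 ± 0.17, adjusted p = 0.00626). Leaving out 1 library, calls were lost for APOC3 in 2 of 6 fits (adjusted p up to 0.0743, without sgKEAP1-1 replicate 2), APOA1 in 3 of 6 fits (adjusted p up to 0.101, without sgCtrl replicate 1) and APOH in 1 of 6 fits (adjusted p up to 0.0512, without sgKEAP1-1 replicate 1).

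Of 26 genes for cholesterol synthesis and uptake 7 were called lower, while 3 had a positive fold change and the median was -0.47. With the block 14 were lower and 1 higher. HMGCS1, the cytosolic HMG-CoA synthase, fell from 460.5, 463 and 465 CPM to 226, 182 and 218 CPM, without overlap (-1.15 ± 0.13, adjusted p = 9.09e-05). ACAT2, from 508, 601 and 563 to 369, 314 and 324 CPM (-0.73 ± 0.14, adjusted p = 0.00805), SQLE, from 207, 250.4 and 232 to 158, 141 and 159 CPM (-0.59 ± 0.12, adjusted p = 0.0124), and the late enzyme MSMO1 (-0.57 ± 0.14, adjusted p = 0.0382) fell. SREBF2, the factor that drives these genes, had -0.27 ± 0.14 (adjusted p = 0.436). In fatty acid and triglyceride synthesis 4 of 27 were called lower (median -0.22), and the block added 3 higher and 1 lower. They were the elongase ELOVL2, from 218, 168 and 177 to 96.9, 98.2 and 108 CPM (-0.89 ± 0.13, adjusted p = 0.000786), the acyltransferase GPAM (-0.67 ± 0.13, adjusted p = 0.00798), the carbohydrate-sensing factor MLXIPL (-0.63 ± 0.13, adjusted p = 0.0109) and the lipid droplet protein CIDEB (-0.87 ± 0.18, adjusted p = 0.0124). FASN (-0.16), SCD (-0.17) and ACLY (-0.11) did not pass. The fits without 1 library lost the call of SQLE in 4 of 6 fits (adjusted p up to 0.0621, without sgCtrl replicate 3), MSMO1 in 5 of 6 fits (adjusted p up to 0.168, without sgKEAP1-1 replicate 1), MLXIPL in 3 of 6 fits (adjusted p up to 0.0685, without sgCtrl replicate 1) and CIDEB in 4 of 6 fits (adjusted p up to 0.0762, without sgKEAP1-1 replicate 1). Without replicate 2 of all groups 3 of the cholesterol list were called lower.

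Fatty acid oxidation and peroxisome genes gave 3 calls lower and 1 higher of 50 (median -0.11), against 4 and 1 with the block. The fatty acid carrier FABP1 fell from 1254, 1254 and 1074 CPM to 482, 766 and 521 CPM (-1.02 ± 0.16, adjusted p = 0.0017), HADH, a dehydrogenase of beta-oxidation, from 85.8, 81.7 and 101 to 52.9, 49.02 and 62.6 CPM (-0.71 ± 0.15, adjusted p = 0.0108), and the thioesterase ACOT2 narrowly (-0.72 ± 0.19, adjusted p = 0.0469). ETFB, of the electron transfer flavoprotein, rose from 1085, 869 and 930.0 to 1555, 1610 and 1318 CPM (0.64 ± 0.14, adjusted p = 0.0144). In the urea cycle and amino acid catabolism 2 of 32 were called higher and 1 lower (median -0.07), against 4 and 5 with the block. HPD, of tyrosine breakdown, rose from 23.1, 27.2 and 20.9 to 46.3, 86.05 and 50.2 CPM (1.37 ± 0.23, adjusted p = 0.00236), and so did argininosuccinate lyase ASL (0.79 ± 0.20, adjusted p = 0.0407). Glutamate dehydrogenase GLUD1 fell from 326, 314 and 291 to 164, 191 and 189.6 CPM (-0.77 ± 0.14, adjusted p = 0.004), while CPS1, the first enzyme of the cycle, had -0.36 ± 0.21 (adjusted p = 0.474). Calls that were lost without 1 library were those of HADH in 3 of 6 fits (adjusted p up to 0.0818, without sgCtrl replicate 3), ACOT2 in 4 of 6 fits (adjusted p up to 0.194, without sgKEAP1-1 replicate 1), ETFB in 4 of 6 fits (adjusted p up to 0.082, without sgCtrl replicate 3) and ASL in 5 of 6 fits (adjusted p up to 0.196, without sgCtrl replicate 1).

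In sugar metabolism 4 of 37 genes were called higher and 1 lower (median 0.20), against 8 and 4 with the block. The platelet-type phosphofructokinase PFKP rose from 0.53, 1.701 and 3.07 to 12.4, 15.2 and 16.6 CPM (3.05 ± 0.39, adjusted p = 0.000254, and 3.77 without sgCtrl replicate 3) and the hexokinase HK1 from 0.265, 1.36 and 1.11 to 4.38, 6.97 and 4.47 CPM (2.55 ± 0.49, adjusted p = 0.006404). PKM, pyruvate kinase, was at 726, 750.3 and 678 and 1027, 1032 and 1044 CPM (0.53 ± 0.12, adjusted p = 0.0157), and the glucose transporter SLC2A1 at 232, 321 and 209 and 533, 792 and 422 CPM (1.2 ± 0.28, adjusted p = 0.0407). The muscle-type enolase ENO3 fell (-1.32 ± 0.25, adjusted p = 0.006404). The 2 key enzymes of gluconeogenesis depended on the pairing. PCK1 was at 21.99, 86.1 and 22.3 CPM in the controls and at 2.68, 20.3 and 6.57 CPM with sgKEAP1-1, and G6PC1 at 12.7, 92.5 and 7.81 and 3.897, 9.59 and 1.05 CPM. In each numbered pair both were lower with sgKEAP1-1, with replicate 2 the highest library of either group. The log2 fold change of PCK1 was -2.1 ± 0.79 (adjusted p = 0.265, blocked 2.06e-06) and that of G6PC1 -2.88 ± 1.14 (adjusted p = 0.298, blocked 3.50e-06). These 2 genes were singled out after their values had been seen. Without 1 of the 6 libraries the call was lost for PKM in 4 of 6 fits (adjusted p up to 0.102, without sgCtrl replicate 3) and SLC2A1 in 4 of 6 fits (adjusted p up to 0.154, without sgCtrl replicate 1).

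Metallothioneins, which bind zinc, copper and cadmium, fell. Of the 14 tested metallothionein and zinc genes 7 were called lower (median -0.59), against 8 with the block. MT1E was at 1659, 1808 and 1603 CPM in the controls and at 916, 1093 and 893 CPM with sgKEAP1-1 (-0.80 ± 0.13, adjusted p = 0.00181). MT1G went from 767, 596 and 792 to 313, 236 and 292 CPM (-1.36 ± 0.17, adjusted p = 0.000247) and MT1F from 461, 295 and 356 to 154, 125 and 145 CPM (-1.39 ± 0.19, adjusted p = 0.000565). MT1M (-1.82 ± 0.34, adjusted p = 0.00626), MT1A (-0.93 ± 0.15, adjusted p = 0.00155) and MT1X (-0.98 ± 0.19, adjusted p = 0.00627) fell too, and MT2A, which was abundant, only with the block (-0.38 ± 0.21, adjusted p = 0.447, blocked 0.0307). The MT1 genes are near copies of each other, so the share of each is uncertain. The manganese exporter SLC30A10 fell from 21.5, 38.5 and 22.6 to 4.87, 10.2 and 4.47 CPM (-2.04 ± 0.42, adjusted p = 0.0138), and MTF1, the zinc-sensing factor, had 0.46 ± 0.22 (adjusted p = 0.362). Leave-one-out fits lost the calls of SLC30A10 in 2 of 6 fits (adjusted p up to 0.0814, without sgKEAP1-1 replicate 1) and MT1X in 1 of 6 fits (adjusted p up to 0.0504, without sgCtrl replicate 1).

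The remaining large decreases by the naming rule were of transporters, enzymes and secreted factors. SLC22A7, an organic anion transporter of hepatocytes, fell from 15.4, 7.15 and 10.04 CPM to 3.41, 0.436 and 2.37 CPM (-2.42 ± 0.56, adjusted p = 0.0232), and SLCO4C1, of another anion transporter family, from 37.4, 26.2 and 37.6 to 11.4, 6.75 and 9.47 CPM (-1.88 ± 0.25, adjusted p = 0.000324). The medium-chain acyl-CoA synthetases ACSM2B, from 38.2, 36.8 and 23.7 to 7.55, 9.37 and 7.63 CPM (-1.996 ± 0.24, adjusted p = 0.000143), and ACSM2A (-1.85 ± 0.48, adjusted p = 0.0459) are close paralogs. TNFSF10, the death ligand TRAIL, fell from 50.4, 75.5 and 39.6 to 13.9, 20.9 and 7.63 CPM (-1.94 ± 0.31, adjusted p = 0.00269). GDF7, a BMP-family ligand, fell from 45.8, 38.1 and 38.8 to 12.4, 11.6 and 13.9 CPM (-1.7 ± 0.18, adjusted p = 6.34e-05), the peptidase-like NAALADL1 from 31, 23.5 and 18.4 to 6.09, 10.2 and 5.79 CPM (-1.71 ± 0.29, adjusted p = 0.00244) and RHEX, a regulator of erythroid expansion, from 11.4, 7.15 and 8.92 to 1.71, 3.05 and 2.89 CPM (-1.84 ± 0.39, adjusted p = 0.0132). Without sgKEAP1-1 replicate 1 the log2 fold change of SLC22A7 was -3.005. The calls lost without 1 library were those of SLC22A7 in 4 of 6 fits (adjusted p up to 0.14, without sgCtrl replicate 1), ACSM2A in 5 of 6 fits (adjusted p up to 0.243, without sgCtrl replicate 1) and RHEX in 3 of 6 fits (adjusted p up to 0.0961, without sgCtrl replicate 1).

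Several housekeeping lists showed little movement. Over all features 8.37% were higher and 6.63% lower at an unadjusted p under 0.05, which is the background for the unadjusted counts given here. None of 75 nuclear-encoded respiratory chain subunits was called by edgeR (median 0.05), with 3 higher at an unadjusted p under 0.05, 2 higher with the block, 0 by limma-voom and 1 by DESeq2. None of 44 proteasome genes was called (median 0.09), with 3 higher and 2 lower at an unadjusted p under 0.05, 1 lower with the block, 0 by limma-voom and 1 lower by DESeq2. A positive fold change was seen for 37 of these 44, for 49 of the 75 respiratory chain subunits and for 40 of 73 ribosomal proteins. None of 73 cytosolic ribosomal proteins was called (median 0.02), and there were 0 at an unadjusted p under 0.05, with the block, by limma-voom and by DESeq2. The proteasome subunits PSMA7 (0.11 ± 0.11, adjusted p = 0.737) and PSMB5 (0.11 ± 0.10, adjusted p = 0.718), the ATP synthase subunits ATP5MC3 (-0.01 ± 0.12) and ATP5MG (0.05 ± 0.14) and the ribosomal RPS27A (-0.06 ± 0.15) and RPL37A (-0.04 ± 0.14) are the most abundant members of those lists. Of 39 chaperone and folding genes 2 were called higher (5.13%, against 2.8% of all features tested). With the block 4 were, where 5.11% of all features were called higher. The 2 were the co-chaperone DNAJB4, from 6.09, 4.76 and 9.48 to 25.6, 30.7 and 40.8 CPM (2.23 ± 0.26, adjusted p = 0.000113), and the small heat shock protein HSPB1 (0.72 ± 0.14, adjusted p = 0.00767).

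In the list of ATF4, amino acid and serine response genes 1 of 33 was called higher, the cystine transporter SLC7A11 given above, and 1 lower, PHGDH, the first enzyme of serine synthesis (-0.63 ± 0.14, adjusted p = 0.0202), against 5 and 1 with the block. Without the block these shares were 3.03% each, near the 2.8% higher and 1.4% lower of all features tested. Of 27 p53 targets 1 was called higher (3.7%, against 2.8% of all features tested), and 2 with the block. This was CDKN1A, the p21 inhibitor of cyclin-dependent kinases, at 66.5, 63.97 and 69.7 CPM with sgCtrl and 119, 98.9 and 93.1 CPM with sgKEAP1-1 (0.64 ± 0.13, adjusted p = 0.0111), while MDM2 had 0.17 ± 0.12 (adjusted p = 0.5904). Among 56 cell cycle and replication genes 3 were called higher (5.36%) and 1 lower (1.79%), and with the block 4 and 8. A positive fold change was seen for 6 of the 56, and the median was -0.29. The G1 cyclins CCND3, from 7.15, 10.6 and 10.6 to 37.3, 24.4 and 24.5 CPM (1.61 ± 0.24, adjusted p = 0.000961), and CCND2, from 1.59, 3.06 and 1.95 to 13.2, 5.45 and 8.94 CPM (2.07 ± 0.47, adjusted p = 0.0209), rose with CDKN1A, and the S-phase factor E2F1 fell (-0.72 ± 0.19, adjusted p = 0.0498). The proliferation marker MKI67 had -0.21 ± 0.26 (adjusted p = 0.802, blocked 0.287). Of 22 interferon and antigen presentation genes 3 were called higher (median -0.02), and with the block 1 was called lower as well. Those called higher were the membrane restriction factors IFITM2 (1.03 ± 0.19, adjusted p = 0.00627) and IFITM3 (0.79 ± 0.18, adjusted p = 0.0209), whose sequences are alike, and OAS1 (1.26 ± 0.30, adjusted p = 0.0285). ISG15 (-0.02) and MX1 (-1.34 ± 0.50, adjusted p = 0.194) did not pass. Leaving out 1 library, calls were lost for PHGDH in 4 of 6 fits (adjusted p up to 0.103, without sgCtrl replicate 3), CDKN1A in 2 of 6 fits (adjusted p up to 0.0766, without sgKEAP1-1 replicate 1), CCND2 in 4 of 6 fits (adjusted p up to 0.131, without sgCtrl replicate 1), E2F1 in 6 of 6 fits (adjusted p up to 0.204, without sgCtrl replicate 1), IFITM3 in 5 of 6 fits (adjusted p up to 0.0828, without sgCtrl replicate 2) and OAS1 in 4 of 6 fits (adjusted p up to 0.144, without sgCtrl replicate 3).

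The cells carried hepatocyte markers in both groups. The summed level of all 8 was 24490 to 30870 CPM in the sgCtrl libraries and 15360 to 18740 CPM with sgKEAP1-1, where 4 of the 8 were called lower and 1 higher, against 5 and 1 with the block. ALB alone held 11030 to 16330 CPM of this sum with sgCtrl and 5373 to 7761 CPM with sgKEAP1-1. APOB, SERPINA1 and HNF4A were not called without the block. Of 4 biliary markers KRT7 was not analysed here and 3 were tested, with 636.0 to 718.6 CPM in sum with sgCtrl and 860.1 to 1097 CPM with sgKEAP1-1. Of these KRT19 was called higher, as given above, and SOX9 (-0.09 ± 0.15) and EPCAM (0.05 ± 0.13) did not pass. The 4 endothelial markers were not analysed here. Of 5 leukocyte markers PTPRC and CD3E were not analysed here, and none of CD68, CD14 and LYZ was called by edgeR, limma-voom or DESeq2. At an unadjusted p under 0.05 there was 1, CD14 (-1.33 ± 0.42, adjusted p = 0.102), which the block called lower (adjusted p = 0.0325). LYZ, lysozyme, made up nearly all of their sum, at 959.8, 1796 and 960.1 CPM with sgCtrl and 1085, 2537 and 995 CPM with sgKEAP1-1, highest in replicate 2 of both. Of 5 fibroblast markers PDGFRB alone was tested (7.42, 9.87 and 6.69 CPM with sgCtrl and 6.09, 11.3 and 6.57 CPM with sgKEAP1-1). In bulk RNA fewer cells of one kind and less RNA per cell cannot be told apart, and the share of edited cells was not measured here.

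The direct test of sgKEAP1-1 against sgKEAP1-2 called 2 of 11064 features (0.0181%). Both were liver lipid genes, higher with sgKEAP1-1 than with sgKEAP1-2. MTTP was at 27.04, 50.1 and 42.9 CPM with sgKEAP1-1 and at 8.93, 15.1 and 9.21 CPM with sgKEAP1-2, a log2 difference of 1.84 ± 0.25 (adjusted p = 0.0377), with 125, 158 and 128 CPM in the controls. FABP1 was at 482, 766 and 521 CPM with sgKEAP1-1 and at 239, 271 and 294 CPM with sgKEAP1-2 (1.14 ± 0.16, adjusted p = 0.0377), with 1254, 1254 and 1074 CPM in the controls. The libraries of the KEAP1 guides did not overlap for either gene. With the replicate block 21 were higher and 5 lower, limma-voom called 0 and DESeq2 15 higher and 4 lower. Same-numbered libraries of these groups share a prefix in their column names, and their deviations correlated by 0.03, 0.521 and 0.213. Whether the numbers pair these groups was not settled. Leaving out each library in turn left 0 to 2, with 0 without sgKEAP1-1 replicate 2 or 3 and without sgKEAP1-2 replicate 1, and 1 without sgKEAP1-2 replicate 2 or 3. AFP, with a log2 difference of 1.11 ± 0.18 (adjusted p = 0.0873), ALB (0.56 ± 0.18, adjusted p = 0.884), NQO1 (-0.36 ± 0.12, adjusted p = 0.877), GCLM (-0.41 ± 0.17, adjusted p = 0.956), GLA (-0.26 ± 0.16, adjusted p = 0.986) and KEAP1 itself (-0.42 ± 0.15, adjusted p = 0.9001) did not pass, which does not show that the guides act alike. Of these 6 the block called AFP (adjusted p = 2.91e-05) and ALB (adjusted p = 0.0231).

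Against the same 3 sgCtrl libraries, sgKEAP1-2 gave 659 features called higher (5.96%) and 537 lower (4.85%). Because both contrasts share these controls, their fold changes are set side by side without a test of their likeness. For PTGR1 the values, sgKEAP1-1 first, were 5.08 and 5.62 on the log2 scale, with 1.38 and 1.74 for NQO1 and 1.77 and 2.18 for GCLM. They were 2.65 and 3.08 for SPP1, 2.67 and 3.02 for S100A11, and 1.49 and 1.75 for GLA. Among the genes that fell they were -1.27 and -2.38 for AFP, -1.15 and -1.34 for HMGCS1, and -1.65 and -1.61 for KNG1. For KEAP1 mRNA they were -0.40 and 0.02.

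**Figure D4:**
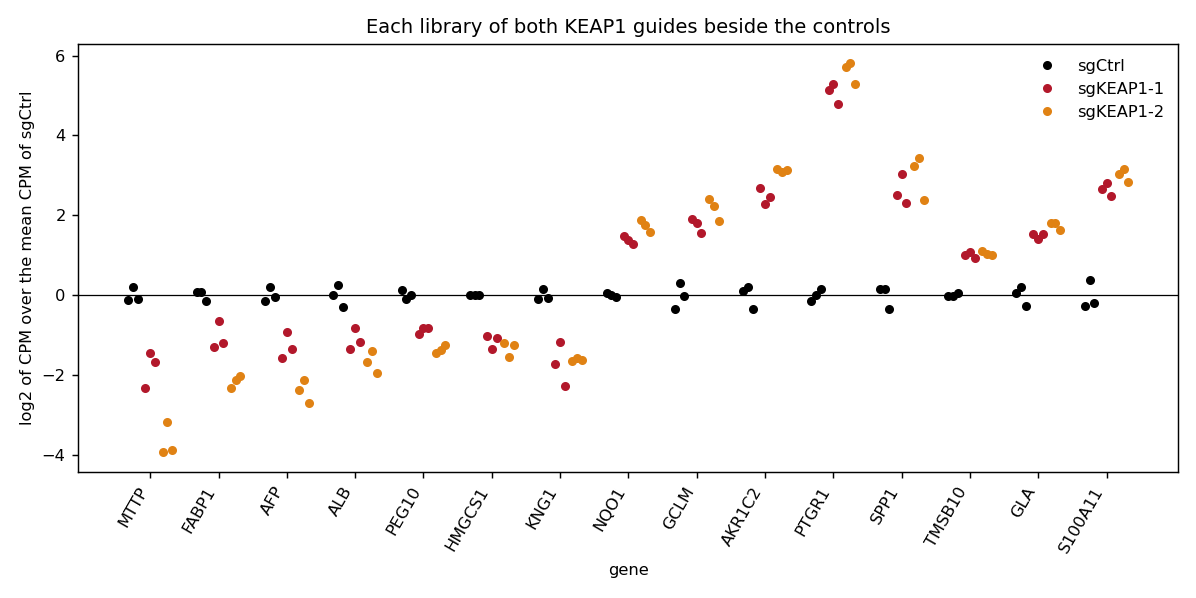
Log2 of the CPM of each library over the mean CPM of sgCtrl for 15 genes, with 3 libraries each of sgCtrl (black), sgKEAP1-1 (red) and sgKEAP1-2 (orange). MTTP and FABP1, at the left, are the genes called between the KEAP1 guides, and their sgKEAP1-2 libraries all lie below those of sgKEAP1-1.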

How the data were processed

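RNA was measured in 9 HepG2 libraries, 3 each of sgCtrl, sgKEAP1-1 and sgKEAP1-2, by QuantSeq 3′ sequencing. The authors deposited 1 table of raw read counts per gene, not normalized, and the submitters' processing notes name FastQC 0.72, cutadapt 1.16, STAR 2.7.5b, featureCounts 1.6.3 and limma 3.40.6. Their own test was limma-voom. The labels give the genome as hg38 and the study's methods as GRCh37, and the annotation, the strand setting and any filter are not given in the sources used here, so reads of overlapping or antisense genes cannot be told apart. All 12798 rows of the table were above 0.5 CPM in at least 3 libraries, so silent genes are not analysed here. No sample column was left unmapped (0 columns). The 1052 rows without an Entrez number, with 1.34% of the counts, were left out. Groups and replicate numbers came from the sample titles.

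Counts were scaled by TMM and tested with edgeR 4.0.16 in R 4.3.3 (filterByExpr, robust quasi-likelihood fit of group over all 9 libraries, 2-sided, Benjamini-Hochberg adjustment over the 11064 features tested). Intervals of ratios over few control reads are 95% and cover counting error only, and a control at 0 was set to 3 counts per library. The same results were computed with a replicate block, with DESeq2 size factors or no scaling, by limma-voom (limma 3.58.1) and DESeq2 1.42.0, with other filters on low counts, on only the 2 groups compared, with a log2 fold change of at least 1 as well, and without each library in turn. Keeping the rows without an Entrez number and leaving out replicate 2 of all groups were chosen after seeing the data. Deviations from the group means correlated by 0.226, 0.378 and 0.163 between same-numbered sgKEAP1-1 and sgCtrl libraries. Between unlike-numbered ones they ran from -0.319 to 0.157, the latter for sgKEAP1-1 replicate 1 with sgCtrl replicate 3. The numbers thus set replicate 2 apart, while the pairing of replicates 1 and 3 was not settled. The block was fitted over all 9 libraries. In all groups the column names of same-numbered libraries also share a prefix, whose meaning the labels do not state. Between the KEAP1 guides the correlations were 0.030, 0.521 and 0.213. Within sgCtrl and within sgKEAP1-1 no 2 libraries agreed within sampling noise (chi-square per degree of freedom 4.69 to 17.4).

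The fit was tested on simulated data (11100 genes, 200 of them changed). Gene levels came from the sgCtrl libraries, and depth and the trended spread from all 9 libraries. The fit recovered 17 of 67 changes of 1.5-fold, 47 of 67 of 2-fold and 64 of 66 of 4-fold, with 5.19% of its calls false. No replicate effect or gene-specific spread was simulated, and genes without control reads were left out. These rates may therefore be better than those in the real libraries. Named genes were KEAP1 with NFE2L2, BACH1, TFEB and TFE3, the 15 largest changes in each direction among called genes without overlap and with a group mean of at least 5 CPM, up to 4 called members per list and direction by smallest p (for a list with none called, its 2 most abundant), and the genes called between the KEAP1 guides. Other genes in the text are list members or were chosen for their known roles. Some genes of the lists that the rule selects are counted but not reported here by name. The comparison, the lists and the tests were chosen with earlier results of these data known. Tables and figures were made with Python 3.11.15, pandas 2.3.3, NumPy 2.4.6 and Matplotlib 3.10.9.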

Additional observations from a re-analysis of the deposited data

Results flagged for a closer look

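The response to the exon 3 guide differed from that to the other KEAP1 guide for 2 liver lipid genes by the direct test of edgeR. The log2 difference of sgKEAP1-1 over sgKEAP1-2 was 1.84 for MTTP (adjusted p = 0.0377) and 1.14 for FABP1 (adjusted p = 0.0377). Both were below the controls with either guide, and in all 3 libraries of sgKEAP1-2 lower than in any of sgKEAP1-1. Neither was called by limma-voom, by the fit of only the 2 groups, or without sgKEAP1-1 replicate 2, sgKEAP1-1 replicate 3 or sgKEAP1-2 replicate 1, and the cause of the difference was not tested.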

How the results depend on the processing

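All 122 called genes named by the rule kept their direction under every alternative that tested them. Their choice nearly fixed this outcome, as 464 of the 465 called features had groups without overlap. In every fit with 1 library left out 86 kept their call. By limma-voom 116 of the 122 kept their call, and by DESeq2 all 122. The call was kept by 119 without scaling, by 120 in the fit of only the 2 groups and by 120 with rows lacking an Entrez number kept. With at least 10 counts in every library 95 of 100 kept it. Of 510 comparisons of the 34 list medians with an alternative, 446 were counted as the same and 64 as moved. Against the controls the count of 465 (310 higher, 155 lower) became 977 with the replicate block (565 and 412), 284 with a log2 fold change of at least 1 as well (59 lower), and 319 (189 higher, 130 lower) with at least 10 counts in every library, where fewer genes were tested. Leaving out 1 library gave 278 to 422 in all, 200 to 288 higher and 70 to 134 lower. By limma-voom there were 418 and by DESeq2 571, of which 402 and 460 were among the 465. For sgKEAP1-1 against sgKEAP1-2 the block gave 26 (21 higher, 5 lower), DESeq2 19 (15 higher, 4 lower), and limma-voom and the fit of only the 2 groups 0. Whether the replicate numbers pair the KEAP1 guides was not settled. Leaving out 1 library gave 0 to 2, all of them higher. The causes were not tested.

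Directions turned for 4 named genes that were not called. Leaving out 1 library, the log2 fold change ran from -0.083 (without sgCtrl replicate 1) to 0.056 (without sgCtrl replicate 2) for ATP5MC3, from -0.031 (without sgKEAP1-1 replicate 1) to 0.112 (without sgCtrl replicate 3) for ATP5MG, from -0.096 to 0.022 for RPS27A and from -0.13 to 0.049 for RPL37A. At 3011644 to 4725840 counted reads a library, changes of 1.5-fold were mostly missed in simulated data, so genes without a call may still have changed.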

Other observations

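Some genes outside the descriptions above, chosen after their values had been seen, add to the picture of secreted and metabolic products. PEBP1, which inhibits RAF kinase signalling, was among the most abundant genes called lower, at 4986, 4141 and 3840 CPM with sgCtrl and 2829, 2972 and 2770 CPM with sgKEAP1-1 (-0.60 ± 0.12, adjusted p = 0.0108). AGT, the angiotensin precursor, was called lower too, from a mean of 1958 ± 161 to 1386 ± 97.8 CPM (SD, n = 3, log2 fold change -0.50, adjusted p = 0.0205). Further liver genes were called by edgeR with the replicate block only. The betaine methyltransferase BHMT had -1.81 ± 0.59 (adjusted p = 0.114, blocked 0.0449), the glycine methyltransferase GNMT -1.33 ± 0.36 (0.0519, blocked 0.0324) and the histidine ammonia-lyase HAL -1.74 ± 0.89 (0.429, blocked 0.0154). The acute-phase protease inhibitor SERPINA3 had 1.51 ± 0.50 (0.126, blocked 0.04301) and the copper protein CP, ceruloplasmin, 0.81 ± 0.46 (0.494, blocked 6.38e-05). Without 1 library the calls were lost for PEBP1 in 3 of 6 fits (adjusted p up to 0.0921, without sgCtrl replicate 1) and AGT in 4 of 6 fits (adjusted p up to 0.108, without sgCtrl replicate 1).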
